A study of Homo sapiens with 6 samples.

Results

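The intervals described here are the widest entries of 3 peak lists made from nuclear RNA of RH30 cells, precipitated with an antibody against DDX5. DDX5 is a DEAD-box RNA helicase. A member is a distinct interval on chromosomes 1 to 22, X, Y or the mitochondrial genome whose deposited end minus start is at least 1000 bp. A total of 1220 of 93198 intervals met that minimum. Replicate 1 held 242 wide intervals of 23715, replicate 2 held 239 of 23651 and replicate 3 held 739 of 45832, a mean of 406.7 ± 287.8 (SD, n = 3). These are 1.02%, 1.01% and 1.61% of the entries of replicates 1, 2 and 3. The members were chosen by width, so width, the number of summits, fold enrichment and q-value are given as descriptions only.

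The series covers 6 samples of RH30, an established alveolar rhabdomyosarcoma line that carries the PAX3-FOXO1 fusion, all of nuclear RNA and all from cells without any treatment in the labels. The 3 DDX5_IP samples were precipitated with a DDX5 antibody, and their lists are used here. The 3 INPUT samples had no antibody and are not analysed here, so a wide interval cannot be set against the abundance of its RNA. The labels name no further allele or agent, and RH30 is a single line, so the replicates are samples of the same line. Of 20 markers of fusion-positive rhabdomyosarcoma, 16 had an interval in at least 1 list and 12 in every list, MYOD1, MYOG, DES and FGFR4 among them. CDH3, TFAP2B, MYH3 and MYH8 had none. Of 9 markers of blood, epithelium, endothelium and neural crest glia, only PECAM1 had an interval, and none had one in every list. The library kit kept no strand, so RNA from a gene and from its antisense neighbour cannot be told apart.

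DDX5 unwinds RNA duplexes and takes part in transcription, splicing, microRNA processing and the handling of RNA that folds back on itself, including G-rich folds. A peak caller joins neighbouring enriched bases into an interval and can place several summits inside it. A continuous interval of 1 kb or more on spliced RNA has to lie in a long exon or span exon junctions, and the longest exons of human genes are last exons, which carry the 3′ UTR. Long non-coding RNAs, retained introns and transcription past the end of a gene can also give long continuous stretches of nuclear RNA.

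The sequences below are the bases around the best summit, the summit with the highest −log10 q, of high-ranked wide places outside UTRs. Each is 121 bases of GRCh38, read 5′ to 3′, and capitals mark runs of at least 3 G or 3 C. Windows inside a gene are printed on the strand of that gene, and those outside genes on the plus strand. The first set lies in coding sequence, in ATN1 (chr12:6936814-6936934, plus strand), ZNF609 (chr15:64675550-64675670, plus strand), BCOR (chrX:40073447-40073567, minus strand) and HEG1 (chr3:125013689-125013809, minus strand).
ATN1: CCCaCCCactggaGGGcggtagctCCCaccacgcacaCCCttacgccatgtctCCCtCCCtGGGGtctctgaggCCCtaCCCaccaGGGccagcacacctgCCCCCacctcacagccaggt
ZNF609: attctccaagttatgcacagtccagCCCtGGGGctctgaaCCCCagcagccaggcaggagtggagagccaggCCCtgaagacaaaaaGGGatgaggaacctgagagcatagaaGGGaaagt
BCOR: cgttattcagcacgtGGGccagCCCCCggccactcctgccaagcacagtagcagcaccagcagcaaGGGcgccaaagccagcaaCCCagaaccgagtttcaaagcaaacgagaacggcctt
HEG1: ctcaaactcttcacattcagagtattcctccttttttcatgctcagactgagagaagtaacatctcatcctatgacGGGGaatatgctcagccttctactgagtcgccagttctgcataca

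The next window lies in an intron of COPG2 (chr7:130520044-130520164, minus strand). It is shown because COPG2 holds the most numerous intronic wide intervals.
COPG2: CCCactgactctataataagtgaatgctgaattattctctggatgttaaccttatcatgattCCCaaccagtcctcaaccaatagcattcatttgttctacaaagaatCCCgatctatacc

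The last set lies outside annotated genes, downstream of DSEL (chr18:67499874-67499994) and beside ZWINT (chr10:56356023-56356143), both printed on the plus strand. DSEL itself is on the minus strand. Among places whose wide intervals had only intergenic best summits, these had the largest mean width over the lists wide there. Their best summits lay in both other lists.
Downstream of DSEL: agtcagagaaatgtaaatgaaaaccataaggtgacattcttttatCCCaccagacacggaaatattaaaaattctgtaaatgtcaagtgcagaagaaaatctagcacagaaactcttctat
Beside ZWINT: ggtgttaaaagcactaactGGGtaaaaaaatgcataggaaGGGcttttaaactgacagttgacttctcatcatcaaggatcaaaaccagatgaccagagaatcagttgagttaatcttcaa

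The ATN1 window was 68.6% G or C and held 3 runs of G and 9 runs of C. The window downstream of DSEL was 33.1% G or C and held 1 run of C on the printed plus strand. The coding window of HEG1 was 43.8% G or C, so windows of the same class differed as well. None of the printed windows had a pattern of 4 G runs of 3 or more letters with 1 to 7 bases between runs (GGGNGGGNGGGNGGG in its shortest form, searched on both strands). That pattern, which marks a possible G-quadruplex, was found within 50 bases of the best summit in 1 of 242, 1 of 239 and 10 of 739 wide intervals of replicates 1, 2 and 3, which is 0.413%, 0.418% and 1.35%. Among narrower intervals the shares were 1.53%, 1.44% and 1.27%. The wide shares were the lower ones in replicates 1 and 2 and the higher one in replicate 3, and they were not tested. Classes differed. With the best summit in a 3′ UTR, the wide shares were 0%, 0.667% and 1.08%, against 2.03%, 2.48% and 2.11% of narrower intervals, lower in every list. In coding sequence they were 2.22%, 0% and 1.95%, against 0.877%, 1.38% and 0.829%, lower in replicate 2 only. These shares rest on 0, 1 and 4 wide intervals in 3′ UTRs and 1, 0 and 5 in coding sequence.

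The widest intervals reached 15271 bp in replicate 1, 3379 bp in replicate 2 and 15253 bp in replicate 3, and the medians were 1285.5, 1212 and 1290 bp. Most wide intervals therefore lay not far above the minimum, and the extremes were very unequal between lists. At least 3000 bp were spanned by 19, 2 and 43 intervals, and at least 5000 bp by 5, 0 and 11. Replicate 2 thus listed nearly as many wide intervals as replicate 1, and none of its intervals reached 5000 bp. The wide intervals made up 7.50%, 5.44% and 10.4% of all listed bases and 5.06%, 3.79% and 7.58% of all summits in replicates 1, 2 and 3.

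**Figure D1:**
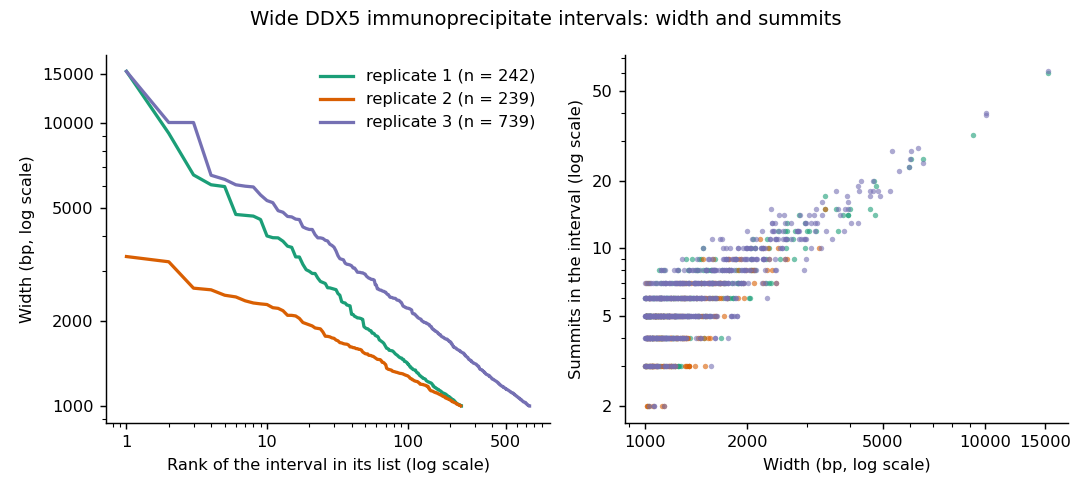
The left panel ranks the wide intervals of each list by width (bp, log scale) and the right panel plots the number of summits in each wide interval against its width (both log scales), with 1 colour per replicate. The curve of replicate 2 begins at 3379 bp, while those of replicates 1 and 3 begin at 15271 and 15253 bp.

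Every wide interval held at least 2 summits. The median was 6, 5 and 6 summits in replicates 1, 2 and 3, and the maximum was 60, 15 and 61. Of the narrower intervals, 28.8%, 25.1% and 29.8% held 2 or more. Neighbouring summits of wide intervals were a median of 199, 221 and 198 bp apart, close to the median width of a whole narrower interval, which was 173, 193 and 186 bp. The fold enrichment at the best summit, the authors' own ratio over the caller's background, had a median of 3.79, 3.85 and 4.11 in wide intervals and of 2.66, 3.21 and 2.90 in narrower ones. Within a wide interval the strongest summit had a median of 1.63, 1.71 and 1.81 times the fold of the weakest. Across the wide intervals of a list, width and best fold had a Spearman correlation of 0.39 in replicate 1 (n = 242), -0.01 in replicate 2 (n = 239) and 0.16 in replicate 3 (n = 739). These points share a library and a peak call, so the values are descriptions.

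Just above the minimum, the intervals of CCDC6 and MPRIP in replicate 1 were 1000 bp wide with best folds of 2.29 and 2.90, and SLC35F6 in replicate 2 was 1002 bp wide with a fold of 3.61. Just below it, NUAK1 was 997 bp wide with a fold of 2.70 in replicate 1 and TGOLN2 was 997 bp wide with a fold of 2.39 in replicate 2. AMOTL2, which encodes an angiomotin-like scaffold of the Hippo pathway, fell on both sides, with a 1000 bp interval in replicate 3 and a 992 bp interval in replicate 2.

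The best summit of a wide interval lay most often in a 3′ UTR. That held for 122 of 242 wide intervals (50.4%) in replicate 1, 150 of 239 (62.8%) in replicate 2 and 372 of 739 (50.3%) in replicate 3. The shares among narrower intervals were 41.7%, 28.8% and 24.1%, so the wide share was the higher one in 3 of 3 lists, by a mean log2 ratio of 0.82 ± 0.48 (SD, n = 3). The exact two-sided sign-flip permutation test over the lists gave p = 0.25, the smallest that 3 lists allow, and 0.5 after Benjamini-Hochberg adjustment over 6 such comparisons, the sixth being the share with 2 or more summits, which is given without a p, so none of them could pass a threshold of 0.05. Against the next width class, from 500 bp up to the minimum, whose 3′ UTR shares were 63.9%, 58.0% and 54.0%, the mean log2 ratio turned to -0.11.

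Coding sequence held the best summit of 45, 70 and 256 wide intervals, 18.6%, 29.3% and 34.6% of those in replicates 1, 2 and 3. The narrower shares were 37.9%, 27.6% and 50.3%. The wide share was lower in replicates 1 and 3 and higher in replicate 2 (mean log2 ratio -0.49 ± 0.56, SD, n = 3, exact sign-flip permutation p = 0.5), and against the next width class the mean turned to 0.21. Introns held 18.6%, 5.44% and 8.80% of the wide intervals, against 11.8%, 33.0% and 16.4% of the narrower ones. Replicate 1 had more intronic best summits among wide intervals and replicates 2 and 3 had fewer, so the lists did not share a direction (exact sign-flip permutation p = 0.5). Intergenic best summits were found in 19, 3 and 26 wide intervals, non-coding exons in 10, 3 and 15, and 5′ UTRs in 1, 0 and 5.

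**Figure D2:**
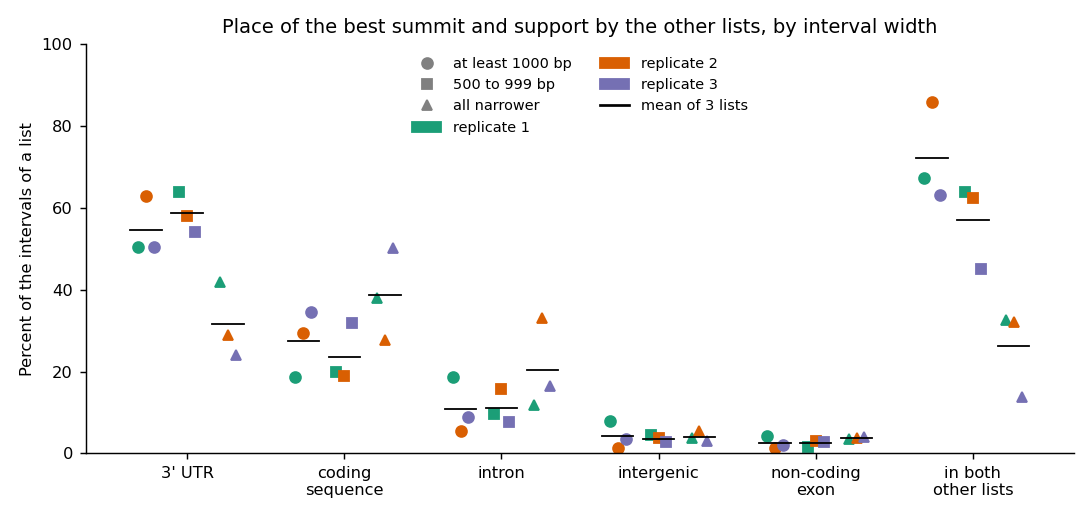
Percent of the intervals of each list with the best summit in a feature, and percent whose best summit lies in an interval of both other lists, for intervals of at least 1000 bp (circles), from 500 bp up to that minimum (squares) and all narrower ones (triangles), with 1 colour per replicate and a line at the mean of 3 lists. The circles of support by both other lists, from 63.2% to 85.8%, lie above all triangles, while the 3′ UTR circles overlap the squares.

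The exons under wide intervals were long. Where the best summit was exonic, the longest annotated exon that held it was taken. Its median length was 4244, 3468 and 3506 bp for wide intervals of replicates 1, 2 and 3, against 1712, 1696.5 and 580 bp for narrower ones. Exons of at least 1000 bp held 98.9%, 98.7% and 96.9% of these wide summits, against 60.1%, 59.9% and 42.3% of the narrower ones. In the next width class, from 500 bp up to the minimum, the shares were 90.1%, 87.5% and 76.9%. The median exon length there was 3609, 3250 and 2623 bp. A wide interval inside a single exon needs an exon of at least 1000 bp, so part of the gap follows from the rule. A single exon contained the whole interval for 149, 182 and 450 wide intervals, which is 61.6%, 76.2% and 60.9%, against 62.6%, 43.9% and 43.5% of narrower ones. The wide share was lower in replicate 1 and higher in the other lists (mean log2 ratio 0.42 ± 0.41, SD, n = 3, exact sign-flip permutation p = 0.5), and against the next width class the mean turned to -0.11. These wide intervals covered a median of 33.8%, 36.2% and 38.5% of the shortest annotated exon that contained them whole.

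Some wide intervals ran across annotated introns that lay entirely inside them. There were 14, 19 and 62 of these, 5.79%, 7.95% and 8.39% of the wide intervals, against 1.77%, 1.87% and 3.00% of the narrower ones. In the next width class, from 500 bp up to the minimum, the shares were 3.79%, 5.83% and 11.2%, the last of them above the wide share of replicate 3. The median share of the bases of these wide intervals annotated only as intron was 0%, 2.87% and 2.25%. Introns were counted as distinct annotated pairs of start and end over all transcripts, so alternative versions of the same intron count separately. MBD6, which encodes a methyl-CpG-binding domain protein, had a 2432 bp interval in replicate 2 with 4 such introns inside it and 539 intronic bases. PTBP1, which encodes a splicing repressor, had a 1143 bp interval in replicate 3 with 5 such introns and 126 bases annotated only as intron.

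The other lists contained most wide intervals. The best summit lay inside an interval of both other lists for 163 of 242 wide intervals (67.4%) in replicate 1, 205 of 239 (85.8%) in replicate 2 and 467 of 739 (63.2%) in replicate 3. Narrower intervals reached 32.5%, 32% and 13.9% in the same lists. The wide share was the higher one in 3 of 3 lists, by a mean log2 ratio of 1.55 ± 0.58 (SD, n = 3, exact sign-flip permutation p = 0.25, adjusted 0.5). Intervals from 500 bp up to the minimum had shares of 63.8%, 62.5% and 45.1%, so the gap to this class was smaller. A summit is a single base, so the bases of the wide interval do not enter this count directly. Broad intervals of the other lists at the same place do. Width can also enter through the choice of summit. The best summit was the strongest of a median of 6, 5 and 6 summits in wide intervals, against 1 in narrower ones. Its median −log10 q was 16.6, 22.1 and 19.8 in wide intervals, against 4.54, 5.13 and 5.41 in narrower ones. The shares were not matched for the strength of the summit.

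Support was read by feature as well. Wide intervals with the best summit in a 3′ UTR had it inside both other lists in 71.3%, 89.3% and 68.8% of cases, against 35.2%, 48.5% and 25% of narrower ones. Those in coding sequence had it in 71.1%, 88.6% and 60.5%, against 36.0%, 49.1% and 12.7%. Intronic ones reached 62.2%, 38.5% and 50.8%, against 18.5%, 6.63% and 3.40% of narrower intronic intervals. Wide intervals in non-coding exons reached 70.0%, 66.7% and 60%, against 21.9%, 21.3% and 6.33% of narrower ones. Intergenic ones reached 47.4%, 66.7% and 38.5%, against 18.98%, 16.4% and 12.6%. In replicate 2 these shares were 2 of 3 wide intervals in non-coding exons, 2 of 3 intergenic and 5 of 13 intronic ones. In 3 of 3 lists the intronic share was below both the 3′ UTR and the coding share, among wide and among narrower intervals alike.

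Wide in a list did not mean wide in the others. Only 72 wide intervals of replicate 1 touched a wide interval of replicate 2, which is 29.8%, while 167 (69.0%) touched a wide one of replicate 3. Replicate 2 covered 50.3% of the bases of an average wide interval of replicate 1, and replicate 3 covered 83.6%. The wide intervals of replicate 2 were covered to 70.5% by replicate 1 and to 84.4% by replicate 3. Of the wide intervals of replicate 3, 21.1% touched a wide one of replicate 1 and 20.4% a wide one of replicate 2, and 58.9% and 50.9% of their bases were covered by those lists. The same place was often split differently, and up to 15 separate intervals of replicate 2 lay under a single interval of replicate 1 or of replicate 3.

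Few wide intervals were absent from the other lists. Not a base was shared with either of them for 4, 2 and 13 intervals. These are 1.65%, 0.837% and 1.76% of the wide intervals, against 22.2%, 38.6% and 55.8% of the narrower ones, and a wider interval has more bases to share. Those of replicate 3 included 1 of 1246 bp with a fold of 3.50 in TTN, which encodes the giant sarcomere protein titin. A further 2, of 1243 and 1133 bp with folds of 3.23 and 3.75, lay where TTN and TTN-AS1 overlap and cannot be assigned to either. Those of replicate 2 were an intron of SMYD2 (1355 bp) and the 3′ UTR of SPON1 (1025 bp).

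Merging wide intervals that shared at least 1 bp gave 868 places. Of these, 49 were wide in every list, 221 in 2 lists and 598 in 1 list. Replicates 1 and 3 alone shared 101, replicates 2 and 3 alone 99, and replicates 1 and 2 alone 21. Replicate 3, the longest list, held 481 of the places found wide in a single list. By the best summits of their wide intervals, 22 of the 49 places lay in a 3′ UTR only and 15 in coding sequence only. Another 6 had a mix of both, 3 lay in an intron only and 3 had other mixes. Their merged span had a median of 2183 bp, and the best summits of the 3 lists were a median of 758 bp apart, within 200 bp of each other in 7 places. For these distances the best summit of a list is taken over all its intervals in the place, narrower ones included. Each width and fold given below is that of the list's widest interval there.

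**Figure D3:**
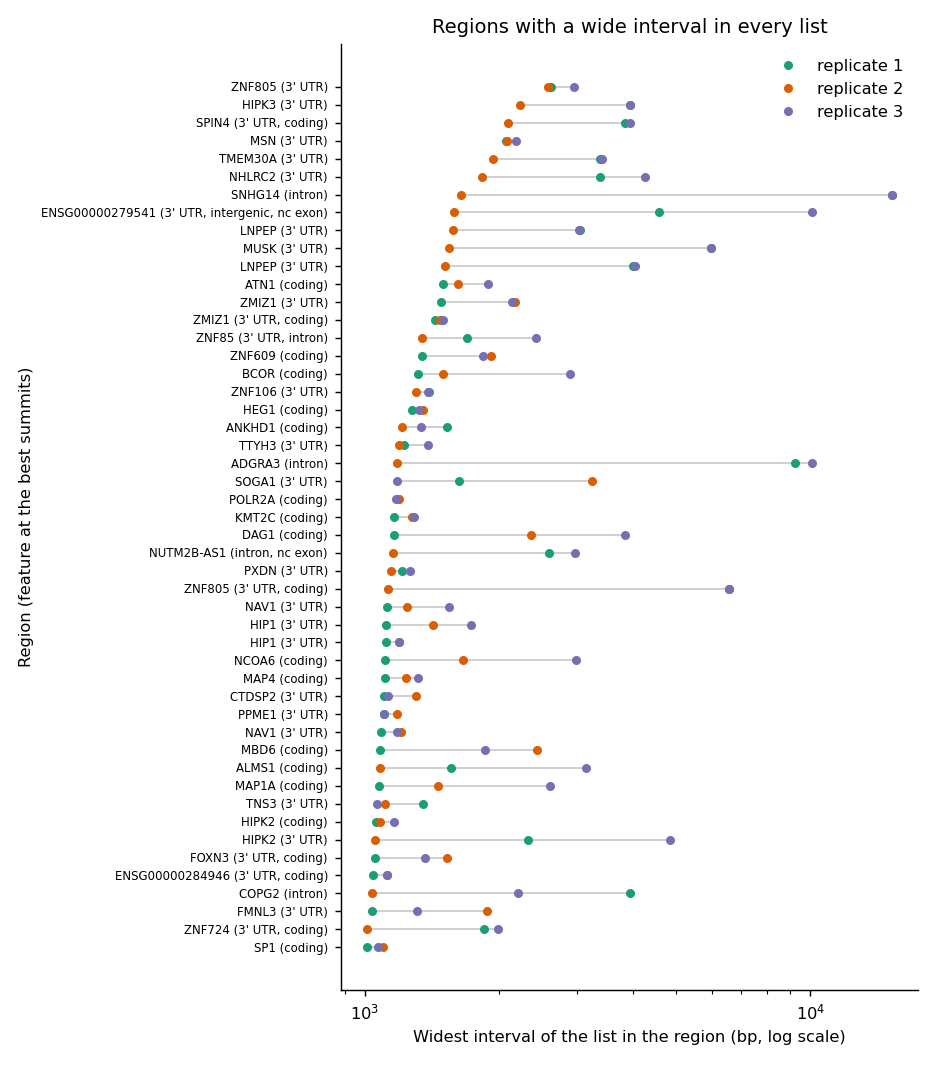
Width of the widest interval of each list (bp, log scale) in the 49 regions wide in every list, ranked from the top by the smallest of the 3 widths, with the feature at the best summits of the wide intervals in brackets and 1 colour per replicate. Regions such as MSN and POLR2A have all points close together, while SNHG14 and ADGRA3 have replicates 1 and 3 far to the right of replicate 2.

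The 3′ UTRs that were wide in every list belonged to genes of several kinds. ZNF805, a zinc finger gene, led with 2621, 2577 and 2940 bp and best folds of 9.44, 7.44 and 12.8 in replicates 1, 2 and 3 (chr19:57259680-57262625). All 3 lists began the interval at nearly the same base. HIPK3, which encodes a nuclear serine/threonine kinase, had 3940, 2228 and 3935 bp with folds of 9.43, 4.79 and 9.11. Its interval in replicate 2 began further downstream, and 3 shorter ones preceded it. MSN, which encodes moesin, a linker of actin to the plasma membrane, had 2077, 2083 and 2187 bp and folds of 2.03, 2.84 and 3.45. Its intervals covered the last exon almost whole, 95.2% of it in replicate 2. MUSK, which encodes the muscle-specific receptor kinase that organises the neuromuscular junction, had 5974, 1542 and 5993 bp with folds of 7.01, 3.00 and 5.72 (chr9:110800313-110806315). Replicate 2 listed 7 intervals with 4476 bp there, so it covered the same 3′ UTR in pieces.

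LNPEP, which encodes a membrane aminopeptidase that cleaves oxytocin and vasopressin, was wide at 2 places of its 3′ UTR in every list. The first had 3036, 1578 and 3028 bp, and the second 3996, 1509 and 4037 bp. ZMIZ1, which encodes a co-regulator of nuclear receptors, was wide in every list at 2 places, of 1482, 2174 and 2140 bp and of 1439, 1471 and 1496 bp, and at the second the best summit of replicate 3 lay in coding sequence. At the first of these, the best summits of all lists lay within 20 bp. SOGA1 was a case in which replicate 2 was widest by far, with 1622, 3238 and 1182 bp and folds of 2.65, 5.19 and 3.07. TMEM30A, which encodes a subunit of phospholipid flippases, had 3369, 1935 and 3402 bp. HIP1, NAV1, TNS3 and PXDN each had 3′ UTR places of 1063 to 1728 bp in every list, with best folds from 1.82 to 3.37.

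In 15 places the best summits of the wide intervals of every list lay in coding sequence. ATN1, which encodes the corepressor atrophin-1, had 1499, 1619 and 1888 bp and best folds of 6.62, 14.7 and 14.0 (chr12:6935393-6937378). Its fold was at least 2 times as high in replicates 2 and 3 as in replicate 1. MBD6 had 1082, 2432 and 1863 bp and folds of 4.14, 17.1 and 10.7, the highest value again in replicate 2. BCOR, which encodes the BCL6 corepressor, had 1313, 1499 and 2881 bp with folds of 2.67, 3.30 and 4.04. NCOA6, a nuclear receptor coactivator gene, had 1108, 1662 and 2974 bp with folds of 2.59, 3.38 and 3.33. POLR2A, which encodes the largest subunit of RNA polymerase II, had 1189, 1195 and 1176 bp, the closest widths of any of the 49 places, and a best fold of 3.94 ± 1.28 (SD, n = 3). DAG1, which encodes the dystroglycan precursor, had 1163, 2356 and 3837 bp with folds of 2.79, 4.49 and 3.59, and the best summits of the lists there lay within 151 bp. SP1, a transcription factor gene, closed the ranking with 1010, 1100 and 1071 bp.

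The longest intervals of all lay in SNHG14, the long non-coding host transcript of the imprinted snoRNA clusters on chromosome 15 (chr15:24983266-24998536). The place also lies in an overlapping gene known here only by its identifier, ENSG00000214265. Replicate 1 listed a single interval of 15271 bp with 60 summits and replicate 3 a single interval of 15253 bp with 61 summits. Replicate 2 listed 15 intervals with 28 summits there, 6463 bp in all, and only 1 of them, of 1645 bp, was wide. The best folds were 15.4, 6.36 and 12.9. Of the bases in the interval of replicate 1, 8609 were annotated as non-coding exon and 6662 as intron. SNURF and SNRPN, which share this imprinted domain, ended before its start.

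An intron of ADGRA3, which encodes an adhesion G protein-coupled receptor, held the next longest intervals (chr4:22372289-22384348). The widest were 9218, 1183 and 10066 bp, and their folds were 15.6, 4.19 and 9.04. Within 20098 bp around it, replicates 1 and 3 had 6 wide intervals each and replicate 2 had 1. All lists had narrower intervals there as well. The introns of COPG2, which encodes a subunit of the COPI vesicle coat, held the largest number of intronic wide intervals, 9, 1 and 7. They began 3123 bp past the annotated end of MEST, an imprinted gene on the opposite strand, and ran on into COPG2IT1, a non-coding RNA on the strand of MEST. The unstranded libraries cannot assign them to either strand.

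Several genes held more than a single intronic wide interval in replicates 1 and 3. The 45, 13 and 65 of replicates 1, 2 and 3 carried 23, 12 and 32 gene labels. COPG2 supplied 17 and ADGRA3 13 of the 123 in all lists. ZNF91, a zinc finger gene, had 3, 0 and 4 in introns, CHEK1, which encodes a DNA damage checkpoint kinase, had 1, 0 and 4, and TTC3 had 2, 0 and 3. The 122, 150 and 372 wide intervals with a 3′ UTR summit carried 105, 135 and 323 labels.

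Loci were ranked by the wide bases of all lists after joining wide intervals less than 5000 bp apart, and 8 loci had at least 15000 wide bases. This ranking was made after the values were seen. They were the COPG2 introns, the stretch downstream of DSEL, the ADGRA3 intron, SNHG14, the stretch downstream of ZNF460, the last exon of ZNF805, the long coding exon of AHNAK and the 3′ UTR of LNPEP. Intervals of any width covered 77.7% to 98.9% of these loci in replicate 1, 0.686% to 64.6% in replicate 2 and 73.2% to 98.9% in replicate 3. Most wide bases that set the ranking come from replicates 1 and 3, so a lower coverage in replicate 2 is partly built into the choice and is given as a description.

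**Figure D4:**
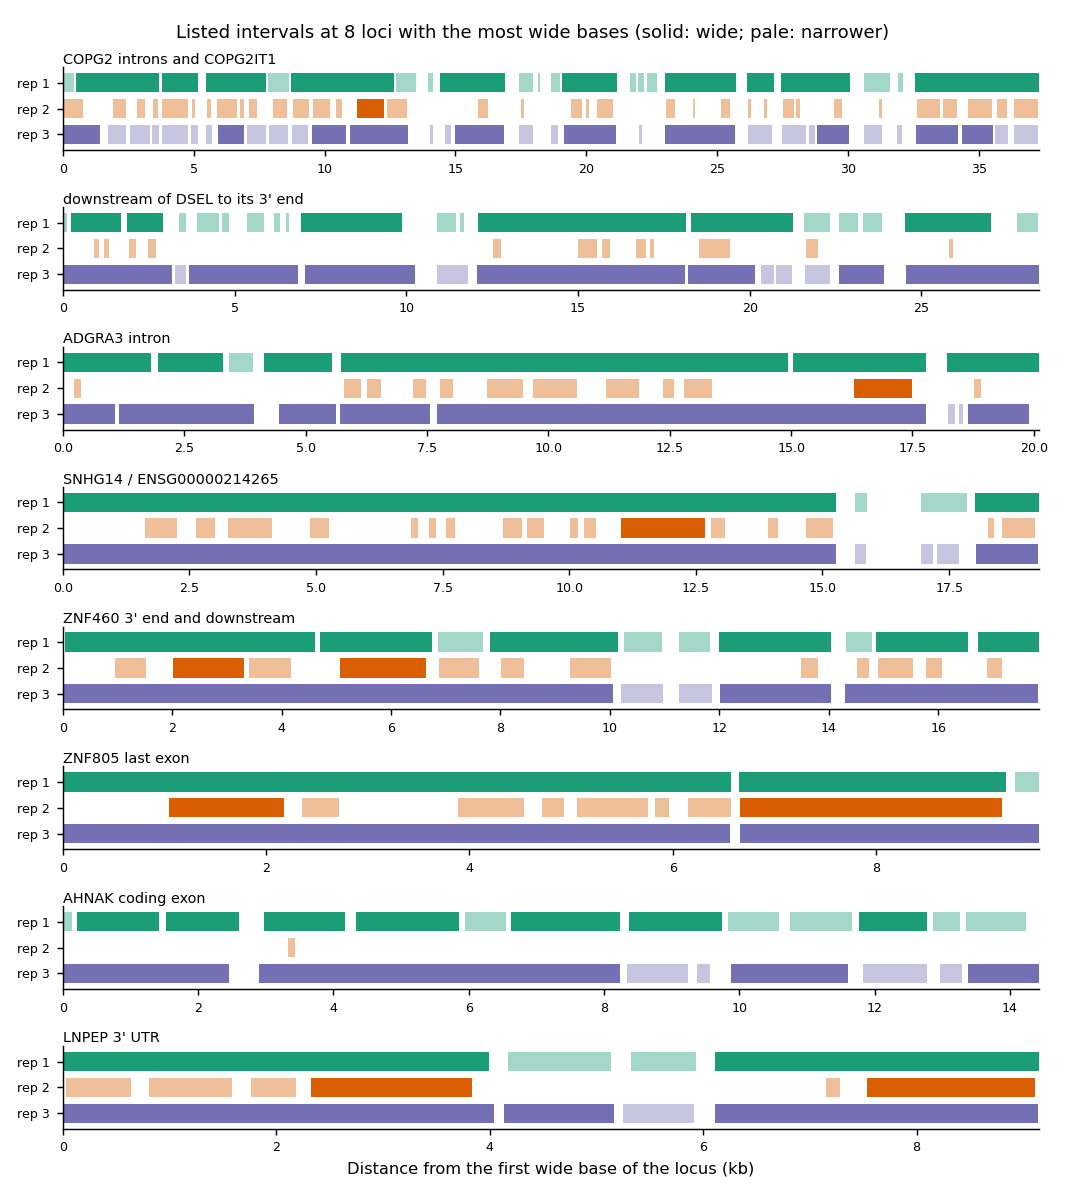
Intervals of each list at the 8 loci with the most wide bases, drawn to scale by distance from the first wide base (kb), with wide intervals solid and narrower ones pale, and with replicate 1 on top, replicate 2 in the middle and replicate 3 below. Replicates 1 and 3 cover most of every locus, while replicate 2 has short pieces at most loci and a single 99 bp interval in AHNAK.

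AHNAK, which encodes a very large scaffold protein, had the lowest coverage in replicate 2 (chr11:62518956-62533379). It had 7 wide intervals in replicate 1, none in replicate 2 and 4 in replicate 3, the widest of 1601 and 5331 bp in replicates 1 and 3. Intervals covered 88.1%, 0.686% and 89.6% of the 14424 bp in the 3 lists. The median folds of its intervals were low, 2.33, 1.73 and 2.35, the second being that of a single interval. The coverage at DSEL, a gene for a dermatan sulfate epimerase-like protein, was 77.7%, 12.4% and 89.9% of 28411 bp, with 6, 0 and 7 wide intervals. There the median folds were 4.35, 3.64 and 5.87.

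Some intergenic wide intervals lay just past a gene end. A best summit past the end of the nearest protein-coding gene, with the interval within 5000 bp of that gene or overlapping it, was found for 8 of 19, 3 of 3 and 16 of 26 in replicates 1, 2 and 3, or 42.1%, 100% and 61.5%. The shares were 23.3%, 23.3% and 26.7% of narrower intergenic intervals and 31.0%, 37.0% and 45.5% of those from 500 bp up to the minimum, and the difference was not tested. In replicate 1, 5 lay more than 50000 bp from any protein-coding gene, and none did in the other lists. Among places whose wide intervals had only intergenic best summits, the widest by mean width over the lists wide there had summits in both other lists. It lay 3599 bp after the end of DSEL in replicate 1. Its width was 6062 bp in both replicate 1 and replicate 3 (chr18:67496890-67502988), with folds of 15.4 and 8.89. Replicate 2 had 5 intervals there, the widest of 544 bp, and a fold of 4.67. At ZWINT, a kinetochore gene, the intervals were 3642 and 3915 bp wide in replicates 1 and 3 with folds of 11.3 and 18.4, and the widest of replicate 2 was 476 bp. At both places the best summits of the 3 lists lay within 44 bp. Downstream of ZNF460, a zinc finger gene, replicate 3 had a single interval of 10065 bp where replicate 1 had 4 intervals and replicate 2 had 7. CIP2A, ZNF724 and ZNF800 were the nearest protein-coding genes of further such intervals.

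Wide intervals also came in runs. Groups of wide intervals less than 1000 bp apart numbered 28, 15 and 82 and held 73, 30 and 185 of the wide intervals of replicates 1, 2 and 3. The largest group had 6 wide intervals in replicates 1 and 3 and 2 in replicate 2.

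The wide intervals belonged to 583 genes of 10205 with any interval, which is 5.71%. Of these, 566 were protein-coding and 10 were long non-coding RNA genes. A wide interval in every list was found for 40 genes, all protein-coding, which is 0.392%, while 161 had one in 2 lists and 382 in 1 list. Only a gene alone at the summit was counted, which leaves out the SNHG14 place, wide in every list but shared with ENSG00000214265. Another place wide in every list had 2592, 1156 and 2959 bp. Its summit went to NUTM2B-AS1 in replicates 1 and 3 and to ENSG00000280355, a gene known only by its identifier, in replicate 2. Several wide intervals in the same list were found for 127 genes.

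Gene lists were read against these shares, and no list was tested. Large cytoskeletal and adhesion genes had the highest share, with 19 of 43 genes with an interval also having a wide one (44.2%) and 3 in every list. The widths here are those of the gene's widest interval in each list, wherever in the gene it lies. The 3 genes were MAP1A, which encodes a microtubule-associated protein (1419, 1459 and 2597 bp), and NAV1 and NAV2, which encode neuron navigators. NAV2 had 1514, 1676 and 1412 bp. Coactivators, corepressors and chromatin remodellers had 18 of 57 (31.6%), with ATN1, BCOR, MBD6 and NCOA6 wide in every list. Lysine methyltransferases and heterochromatin factors had 6 of 34 (17.6%). Both of its genes wide in every list encode histone H3 lysine 4 methyltransferases, KMT2A with 1136, 1975 and 1945 bp and KMT2C with 1164, 1275 and 1785 bp. At the KMT2C place wide in every list replicate 3 had 1290 bp, and KMT2A and NAV2 had no such place. The shares were not adjusted for exon length.

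Zinc finger genes named ZNF had 21 of 265 (7.92%), near the share of all genes, and 4 of them were wide in every list (1.51%, against 0.392% of all genes). These were ZNF805, ZNF85, ZNF609 and ZNF106. A place in ZNF724 was also wide in every list, with 1846, 1010 and 1990 bp, but its best summit in replicate 2 was shared with a gene known only by its identifier, ENSG00000283201. ZNF85 had 1696, 1342 and 2423 bp with folds of 11.3, 3.84 and 12.5. Genes of the Notch, Wnt, Hippo and Hedgehog pathways had 13 of 44 (29.5%) and none in every list. NOTCH2 and NOTCH3, which encode Notch receptors, were wide in replicates 2 and 3, NOTCH2 with 1764 and 1197 bp. YAP1, the Hippo effector gene, had a single wide interval of 3736 bp in replicate 3.

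Genes of fusion-positive rhabdomyosarcoma and myogenesis had 11 of 35 (31.4%), none of them in every list. MYCN, the oncogene often amplified in this tumour, had 1130 and 1561 bp in replicates 2 and 3, with folds of 2.84 and 4.61. IGF2, a growth factor gene, had 1329 and 1301 bp in the same lists. CCND2, which encodes cyclin D2, had 1317 and 1609 bp in replicates 1 and 2. Its folds of 1.70 and 1.66 were near the lowest best folds of wide intervals in these lists, 1.64 and 1.54. MYOG, which encodes the myogenic factor myogenin, had 1053 bp in replicate 3 only. MYOD1, PAX3, FOXO1 and FGFR4 had intervals in every list and no wide one assigned to the gene. Just past the end of FGFR4 lay a wide interval of 1250 bp in replicate 2, 545 bp away, and one of 1268 bp in replicate 3, 521 bp away, both with the best summit in both other lists. DDX5 and its protein partners had 8 of 31 (25.8%), none in every list. ADAR, the double-stranded RNA editing enzyme gene, had 1063 and 1566 bp and EP300, a histone acetyltransferase gene, had 1283 and 1534 bp in replicates 2 and 3. KHSRP, which encodes an AU-rich element binding protein, had 2241 bp in replicate 3. Of 16 nuclear and regulatory long non-coding RNAs with an interval, SNHG14 and NUTM2B-AS1 had wide ones as the only gene at the summit, both in replicates 1 and 3.

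Base composition differed between classes of wide intervals. The median GC content of whole intervals was 48.4%, 52.1% and 51.4% in coding sequence and 41.9%, 47.8% and 46.5% in 3′ UTRs of replicates 1, 2 and 3. It was 38.2%, 45.3% and 38.1% in introns. In intergenic sequence it was 36.0% in replicate 1 and 33.6% in replicate 3, and 50.0% over the 3 intervals of replicate 2. Over all wide intervals the medians were 41.5%, 49.1% and 47.4%, the lowest in replicate 1, which also had the largest share of intronic and intergenic ones. Within 50 bases of the best summit, coding windows had a median of 50.5%, 55.0% and 53.5% G or C in wide intervals and of 52.5%, 52.5% and 50.5% in narrower ones. The order differed between lists. Wide places were aligned only with each other, so copies elsewhere in the genome and repeats under 500 bp were not searched. Alignable copies of the same sequence, at 90% identity over at least 500 bp, linked 5 of the 868 places. They were BEND3P1 with NUTM2B-AS1, at 96.7% over 2635 bp, and places within COPG2 and COPG2IT1, so reads there could have been shared between copies.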

How the data were processed

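Nuclear RNA of RH30 cells was immunoprecipitated with a DDX5 antibody, and libraries were made without strand information, per the labels' protocols. The submitters' processing notes name STAR 2.6.1d and MACS2 2.2.7.1, beside SAMtools 1.10, bcl2fastq 2.20, cutadapt 1.11 and FastQC 0.11.8, and the build GRCh38/hg38. The parameters and the control library are not given in the sources used here, and the depth is unknown. The fold enrichment is a ratio deposited by the authors. Each summit also has a deposited −log10 p-value and −log10 q-value. The deposited score follows from the q-value, per a comparison of the columns, and is left out here. Width, summits, fold and q of a list come from the same peak call, so they can carry depth and RNA abundance.

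Rows sharing an interval were counted once, with the summit of highest −log10 q as best summit. Features came from GENCODE 44, where coding sequence took precedence over UTRs (the 5′ one first), UTRs over other exons, and exons over introns. A summit went to the gene or genes whose exon held it, otherwise to those whose body held it, and a gene was counted only where it was alone. Support meant that the best summit lay inside an interval of another list. Shares in wide and narrower intervals were compared over the 3 lists by flipping the signs of their log2 ratios (exact permutation, two-sided), since intervals of a list are not replicates. The design calls the samples biological replicates. Each p-value only compares the mean log2 ratio of these samples with the means after sign flips. It does not measure the spread between the samples. Members, gene lists and rules were chosen with earlier results of these data known. Named genes were those of regions wide in every list, of the 5 widest intervals of each list, up to 4 members of each gene list, the widest intronic and intergenic places, and intervals nearest the minimum width. Genes outside it, such as AHNAK, TTN, CHEK1, TTC3, ZNF91 and PTBP1, were chosen after their values were seen. Some items that the rule takes are not reported here. The overlap and annotation steps were tested on simulated and resampled intervals. Computations used Python 3.11.15 and pandas 2.3.3. The alternatives tried were other minimum widths, stricter q and fold, equal list lengths, each list left out, other definitions of feature and overlap, and intervals from 500 bp up to the minimum as comparison.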

Additional observations from a re-analysis of the deposited data

How the results depend on the processing

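Of 88 alternatives, 50 concerned 5 shares compared between wide and narrower intervals. They leave out the share with 2 or more summits, which follows from the width. Of these 50, 47 kept the sign of the mean log2 ratio. The other 3 compared with intervals from 500 bp up to the minimum only. There the mean log2 ratio became -0.11 for the 3′ UTR share (exact permutation p = 0.75), 0.21 for the coding share (exact permutation p = 0.5) and -0.11 for the share inside a single exon (exact permutation p = 0.75). With 3 lists no p can fall below 0.25, so none of these comparisons could pass 0.05. For the coding, intron and single-exon shares the lists themselves differed in sign, so a kept mean sign does not stand for every list. The mean of 406.7 wide intervals per list became 711.3 with a minimum of 800 bp, 133.7 with 1500 bp and 206.3 with a fold of at least 4. It ranged from 240.5 without replicate 3 to 490.5 without replicate 2 when a list was left out. The 49 regions wide in every list became 124 with 800 bp, 11 with 1500 bp, 10 with a fold of at least 4 and 32 when at least 50% of both intervals had to be shared. They ranged from 71 without replicate 3 to 150 without replicate 2, since fewer lists have to be wide. The 40 genes wide in every list became 111 with 800 bp, 7 with 1500 bp, 7 with a fold of at least 4 and 63 when intervals less than 100 bp apart were joined. They ranged from 56 without replicate 3 to 122 without replicate 1. For the changes under a fold minimum the cause was not tested. A q under 1e-05 and equal list lengths left all 3 counts within 1.5 times. No paired analysis was possible because the INPUT samples that share the replicate numbers are not analysed here and a single condition has lists.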
